A study of Homo sapiens with 6 samples.

Results

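Notch signalling genes were followed across 3 columns of transcript data from MDA-MB-231 cells: the receptors NOTCH1, NOTCH2 and NOTCH3, the ligands JAG1 and JAG2, the coactivator MAML2, and the target repressors HES1, HES4 and HEY1. These 9 genes were taken by name from the 58174 gene IDs of the table, all 9 were found, and the counts of their transcripts were summed per gene. All 9 averaged at least 1 CPM (counts scaled to the size of the column, with TMM factors), as did 14524 genes in all. MDA-MB-231 is a human triple-negative breast cancer line. The cells are labelled as ARID1A knockout in a KO1 and a KO2 group and as control in the NC group, with 2 samples in each group, and the protein of ARID1A belongs to the BAF complex, which moves nucleosomes. Whether KO1 and KO2 are single clones is not given in the sources used here.

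The table holds 1 column per group and unit and does not say whether a column is 1 library or both. No spread between cultures can therefore be given for any value, and bracketed 95% intervals cover counting error only. Total estimated counts were 25801499 in the KO1 column, 26144758 in the KO2 column and 26798753 in the NC column, of which genes of the mitochondrial genome took 20.5%, 16.9% and 12.8%. For ARID1A itself the RNA level was 45.7 CPM under the KO1 label and 83.9 CPM under the KO2 label, against 77.3 CPM in NC. ARID1A RNA was thus not lower under the KO2 label, the protein was not analysed here, and KO1 and KO2 are used below as names of columns. Of 4 genes that mark the line, VIM was at 4719, 2925 and 3411 CPM in KO1, KO2 and NC, CD44 at 731, 664 and 764 CPM, CAV1 at 402, 613 and 594 CPM, and EGFR at 429, 317 and 152 CPM. The hormone receptor gene PGR had 0 counts in each column, ESR1 had 14 counts in KO2 and 0 in both others, and ERBB2 was at 28.0, 52.4 and 75.7 CPM. The 5 leukocyte markers summed to 0.174, 0.643 and 0.536 CPM, the 5 endothelial markers to 3.35, 7.82 and 4.50 CPM, and the 6 fibroblast markers to 50.4, 39.1 and 32.1 CPM. The fibroblast genes did not move together, with COL1A1 at 49.8, 36.3 and 19.8 CPM, PDGFRB at 0.435, 2.39 and 10.8 CPM, and DCN at 0 counts in each column.

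In Notch signalling a ligand on one cell binds a receptor on its neighbour, the receptor is cut first by an ADAM protease and then by gamma-secretase, and the freed intracellular part enters the nucleus. There it joins the DNA-binding protein RBPJ and a Mastermind coactivator to switch on targets such as the HES and HEY genes, which encode basic helix-loop-helix repressors. In breast tissue the pathway is known for its role in luminal and progenitor cell fate, and JAG1 is a well studied ligand of triple-negative tumours.

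The stretches of HES1 and HES4 are shown because they hold the core motif that RBPJ binds, TGGGAA, which no other window searched among the 9 genes held. Capitals mark the motif, which was searched on both strands in the 250 bases before each RefSeq gene start (GRCh38.p14). The HES1 stretch (chr3:194135898-194136144, plus strand) ends where the first deposited HES1 transcript begins, and the HES4 stretch (chr1:1000156-1000185, minus strand) is the motif with 12 bases on each side, and spans the start of the deposited HES4 gene at 1000172, with most of the motif inside that gene.
HES1: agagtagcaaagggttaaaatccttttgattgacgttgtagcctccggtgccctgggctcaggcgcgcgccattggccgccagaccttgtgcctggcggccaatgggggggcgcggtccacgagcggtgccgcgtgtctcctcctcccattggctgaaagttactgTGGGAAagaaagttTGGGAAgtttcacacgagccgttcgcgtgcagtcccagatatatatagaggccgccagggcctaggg
HES4: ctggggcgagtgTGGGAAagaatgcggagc
HES1 held 2 matches in the same orientation, 14 bases apart from start to start, at -84 and -70 from the gene start, and HES4 held 1 match at -76. Of the 8 genes with a window in the RefSeq table these were the 2 with a match. For NOTCH1, NOTCH2, NOTCH3 and MAML2 the first bases after the RefSeq start were not found in the gene's annotated transcripts. The lack of a match for these genes holds for the RefSeq windows alone. Over all 35116 windows 20.8% held at least 1 match and 2.90% held 2 or more. A match describes the letters of the window and is not evidence of binding.

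A difference between columns is called higher or lower below when it passed a size rule with no p-value. The log2 fold, computed with a prior count of 2, had to be at least 1 in size, the exact 95% interval of the fold had to exclude equality, and the mean over the 3 columns had to be at least 1 CPM. In KO1 against NC 3 of the 9 genes were higher (JAG1, HES1 and MAML2) and 1 was lower (NOTCH3), where 15.4% of all measured genes were higher and 17.4% lower, 32.8% together. In KO2 against NC 2 were higher (JAG1 and MAML2) and 2 lower (HES4 and HEY1), where 11% of all measured genes were higher and 9.98% lower, 21% together. JAG1 and MAML2 were thus higher in both, as were 6.22% of all measured genes, and both comparisons share the NC column. The median log2 fold of the 9 genes was 0.62 in KO1 and -0.36 in KO2, against NC, beside -0.01 and -0.00 over all measured genes.

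**Figure D1:**
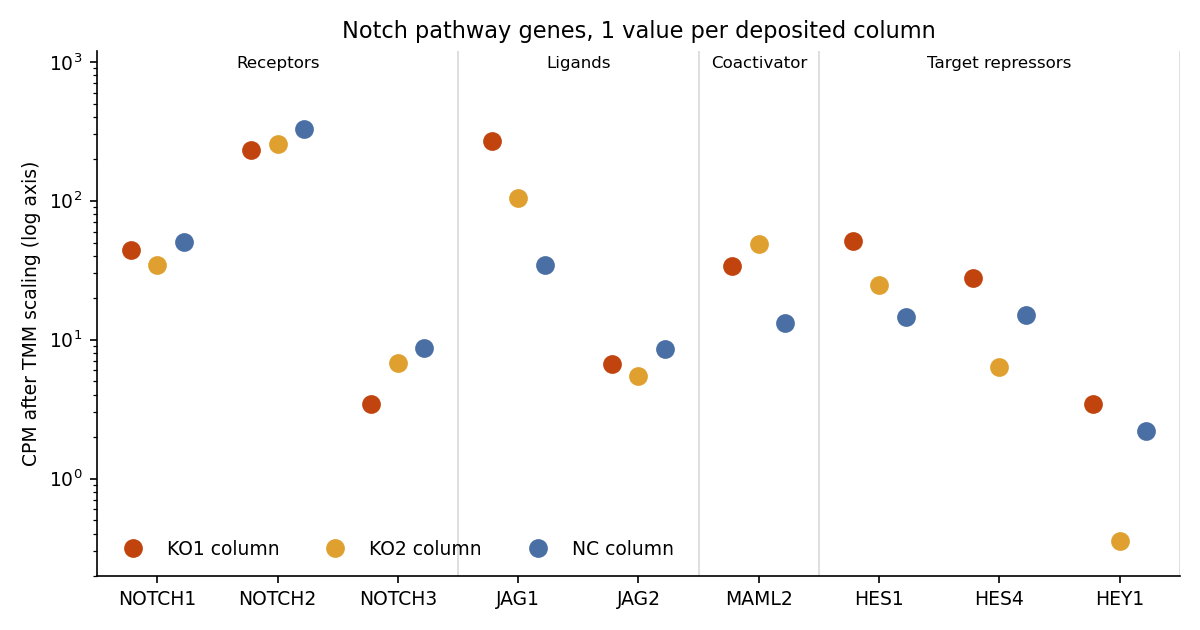
Level of each of the 9 genes in CPM on a log axis, 1 point per deposited column (KO1, KO2 and NC from left to right), grouped by role; there are no replicates and no error bars. JAG1 and MAML2 lie above NC in both knockout columns, and HES4 and HEY1 lie on opposite sides of NC in KO1 and KO2.

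All 3 receptors were below NC in both knockout columns, and only NOTCH3 in KO1 passed the size rule. NOTCH2, the most abundant of them (hg38 chromosome 1, 119911553 to 120069626, minus strand), was at 232 CPM in KO1 and 255 CPM in KO2, against 326 CPM in NC. NOTCH1, the founding human receptor (chromosome 9, 136494444 to 136545862, minus strand), was at 44.3 CPM in KO1 and 34.5 CPM in KO2, against 50.8 CPM in NC. For both receptors each knockout column lay below NC, with log2 folds of -0.49 and -0.36 for NOTCH2 and -0.20 and -0.56 for NOTCH1, and none of these 4 differences passed the size rule. NOTCH2 shares near-identical sequence with the copy NOTCH2NLA, so fragments could be divided between them. With the counts of NOTCH2NLA added, the log2 folds of NOTCH2 were -0.50 and -0.34.

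NOTCH3, a receptor best known from vascular smooth muscle and from breast and ovarian cancer (chromosome 19, 15159038 to 15200981, minus strand), was scarce, with 79 counts in KO1, 191 in KO2 and 243 in NC. Its level was 3.43 CPM in KO1 and 8.68 CPM in NC, a 2.53-fold lower value (1.95 to 3.30). In KO2 it was at 6.82 CPM, a log2 fold of -0.34 that did not pass the size rule. The KO1 column was thus the low one. NOTCH4, the endothelial receptor, had 17 counts in KO1 and 0 in both other columns, under 1 CPM on average.

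JAG1, a transmembrane ligand of the Serrate family, had the largest fold over NC of the 9 genes in KO1. JAG1 (chromosome 20, 10637684 to 10674107, minus strand) had 6217 counts in KO1, 2924 in KO2 and 969 in NC, or 270.3, 104 and 34.6 CPM. The KO1 column was highest and NC lowest. The ratio to NC was 7.81-fold (7.30 to 8.36) in KO1 and 3.02-fold (2.80 to 3.25) in KO2, log2 folds of 2.96 and 1.59. At least 94.9% of JAG1 counts in each column belonged to the transcript ENST00000254958, so the difference lay in that transcript. In bulk RNA, more cells with a transcript and more RNA per cell cannot be told apart.

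The second ligand, JAG2 (chromosome 14, 105140981 to 105168824, minus strand), did not follow it. JAG2 had 153 counts in KO1, 153 in KO2 and 241 in NC, or 6.65, 5.46 and 8.61 CPM, and neither difference from NC passed the size rule (log2 folds of -0.37 and -0.65). Its direction in KO2 depended on the unit. On deposited TPM, a unit per transcript length, JAG2 was at 4.01 TPM in KO2 against 3.18 TPM in NC, while on counts of protein-coding transcripts alone its log2 fold was -1.19, past the size rule. The units differ in the weight of 3 short transcripts that retain an intron. Of these ENST00000546616 had 0 counts in KO1, 21 in KO2 and 4 in NC, ENST00000553244 had 10, 20 and 4, and ENST00000553051 had 0, 15 and 9. Of the Delta ligands, which bind the same receptors, DLL1, DLL3 and DLL4 had at most 25 counts in any column and averaged under 1 CPM.

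MAML2, a Mastermind coactivator of the cleaved receptor (chromosome 11, 95976598 to 96343180, minus strand), was the other gene that was higher in both columns. It had 780 counts in KO1, 1373 in KO2 and 369 in NC, or 33.9, 49.0 and 13.2 CPM. Here the KO2 column was highest. The ratio to NC was 2.57-fold (2.27 to 2.92) in KO1 and 3.72-fold (3.31 to 4.18) in KO2. On deposited TPM the log2 fold in KO1 was 0.98, just short of the threshold of 1. Its paralogs MAML1 and MAML3 did not pass the size rule against NC, at 78.0, 94.0 and 64.9 CPM for MAML1 and 5.39, 3.36 and 3.43 CPM for MAML3 in KO1, KO2 and NC.

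HES1, the best known direct target (chromosome 3, 194136145 to 194138732, plus strand), was at 51.7 CPM in KO1 and 24.6 CPM in KO2, against 14.5 CPM in NC. Its order of columns was that of JAG1, with KO1 highest and NC lowest. The ratio was 3.56-fold (3.17 to 3.99) in KO1 and passed the size rule. In KO2 it was 1.69-fold (1.5 to 1.92), a log2 fold of 0.76, and did not.

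HES4, a HES family repressor found in humans but not in mice (chromosome 1, 998962 to 1000172, minus strand), lay on opposite sides of NC. It was at 27.8 CPM in KO1 and 6.39 CPM in KO2, against 15.1 CPM in NC. In KO2 it was 2.36-fold lower (1.98 to 2.83), past the size rule. In KO1 the ratio was 1.84-fold (1.63 to 2.09), a log2 fold of 0.88 that fell short of it. By the size rule 0.379% of measured genes were higher in KO1 and lower in KO2, a class that HES4 did not enter.

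HEY1, a target repressor of vessels and heart as well as of epithelia (chromosome 8, 79764010 to 79767863, minus strand), had the lowest mean level over the 3 columns. It had 79 counts in KO1, 10 in KO2 and 62 in NC, so its values are the least precise. Its level was 0.357 CPM in KO2 and 2.21 CPM in NC, a 6.20-fold lower value (3.16 to 13.6). In KO1 it was at 3.43 CPM, a log2 fold of 0.62 that did not pass the size rule, and on deposited TPM the KO1 and NC columns were at 1.78 and 1.77 TPM.

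**Figure D2:**
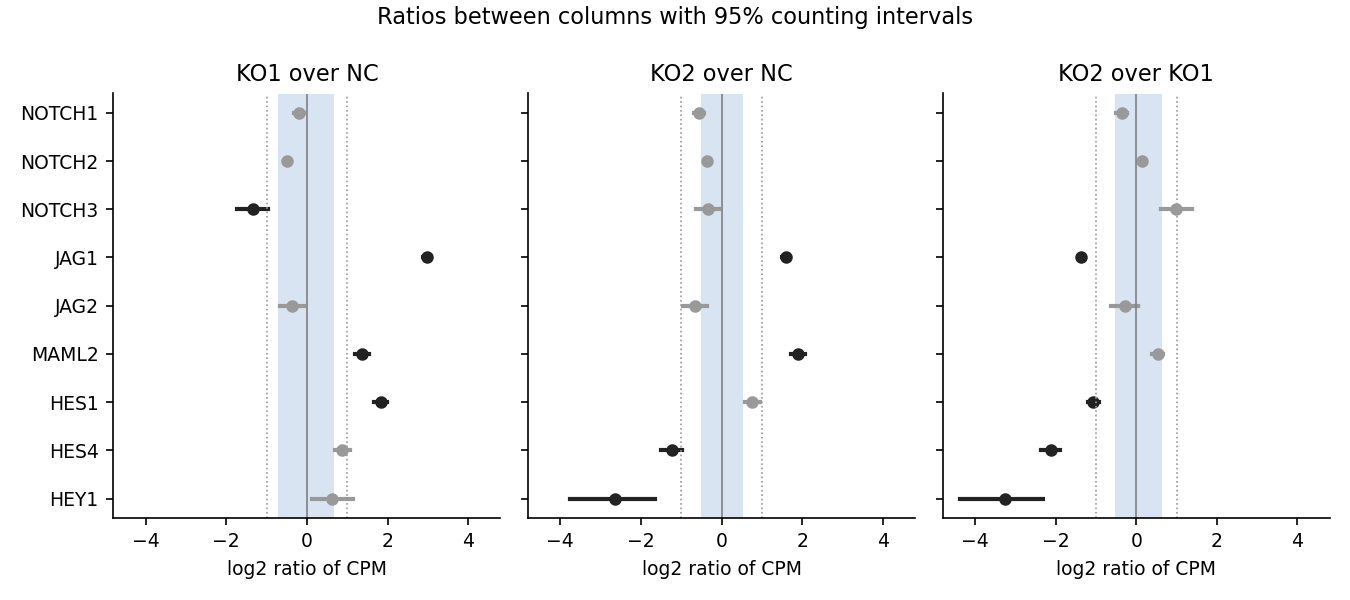
Ratios between columns on the log2 scale, with bars for the exact 95% counting interval; black marks passed the size rule, grey marks did not, dotted lines mark a 2-fold difference and the shaded band is the interquartile range of all measured genes. JAG1 and MAML2 are black on the right in both comparisons with NC, and JAG1, HES1, HES4 and HEY1 are black on the left in KO2 over KO1.

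Set against each other, the 2 columns with the same labelled genotype differed in 4 of the 9 genes, all lower in KO2 (JAG1, HES1, HES4 and HEY1), where 11.2% of all measured genes were lower and 14.9% higher, 26.1% together. The 3 target repressors were all among the 4. HES4 was 4.35-fold lower in KO2 than in KO1 (3.68 to 5.17), HEY1 9.62-fold (4.97 to 20.8), JAG1 2.59-fold (2.48 to 2.71) and HES1 2.10-fold (1.91 to 2.31). NOTCH3 went the other way, at 6.82 CPM in KO2 and 3.43 CPM in KO1, a log2 fold of 0.97 just under the threshold. For JAG1 and HES1 the size of the difference depended on the scaling. With column totals and no TMM factor the log2 fold of HES1 was -0.80, and on deposited TPM those of JAG1 and HES1 were -0.78 and -0.65, so that these calls were lost. The same scalings brought in others as higher in KO2, NOTCH3 with a log2 fold of 1.23 by column totals and 1.21 on TPM, and JAG2 with 1.03 on TPM and -0.28 on counts. Calls on TPM used a rule with no counting interval. It asked for a log2 fold of at least 1 in size, with a pseudocount of 0.1, and a mean of at least 1 TPM. By that rule 2 of the 9 genes were thus higher and 2 lower in KO2 than in KO1 on TPM. On that unit 4878 genes of the whole table passed, 81.4% of them higher in KO2, and the median of all measured genes shifted by 0.42. By column totals 74.8% of the genes that passed were higher. The calls of NOTCH3 and JAG2 as higher are to be read against these shifts.

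The 1 test that the table allows took both knockout columns as a group against NC (edgeR quasi-likelihood F test, two-sided, Benjamini-Hochberg over 18289 genes). It leaves 1 residual degree of freedom and assumes that the lone NC column varies like the knockout columns. It called 0 of the 9 genes at an adjusted p of 0.05, where 0.148% of all tested genes were called. DESeq2 also called 0. At an unadjusted p under 0.05 there were 2 of the 9, JAG1 and MAML2, where 7.7% of all tested genes lay. For JAG1 the log2 fold was 2.44 (edgeR adjusted p = 0.332), higher in both knockout columns. With no filter on low counts its edgeR adjusted p was 0.0442, and over the alternatives it ranged from 0.0442 to 0.399. For MAML2 the log2 fold was 1.65 (edgeR adjusted p = 0.562), also higher in both. The other 7 genes had edgeR adjusted p-values of 0.753 (HES1) to 0.994 (HES4 and HEY1).

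Levels of different genes can be compared per transcript length, on deposited TPM. In NC the order was NOTCH2 at 46.9 TPM, HES4 at 29 TPM, HES1 at 14.85 TPM, JAG1 at 11.95 TPM and NOTCH1 at 9.23 TPM, with JAG2, MAML2, NOTCH3 and HEY1 at 3.18 TPM or less. In KO1 JAG1 came first at 57.0 TPM, before HES4 at 44.3 TPM, HES1 at 41.4 TPM and NOTCH2 at 26.6 TPM. In KO2 NOTCH2 came first at 40.1 TPM and JAG1 second at 33.2 TPM, with HES1 at 26.3 TPM, HES4 at 12.6 TPM and MAML2 at 11.6 TPM. JAG1 thus came after NOTCH2, HES4 and HES1 in NC, before all of them in KO1, and after NOTCH2 alone in KO2. With no replicate spread, neighbours in these orders cannot be told apart by a test.

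HES4, JAG2 and HEY1 were the members whose counts were divided among several transcripts. Each of the other 6 had 1 transcript with at least 94.9% of its counts in every column. For HES4 the protein-coding transcript ENST00000484667 held 55.9% of counts in KO1, 34.1% in KO2 and 34.3% in NC. It was at 15.6 CPM in KO1 against 5.18 CPM in NC, whereas the longer coding transcript ENST00000304952 was at 5.30 CPM in KO1, 1.93 CPM in KO2 and 6.0 CPM in NC. The retained-intron transcript ENST00000481869 was at 6.30 CPM in KO1, 2.03 CPM in KO2 and 3.29 CPM in NC. Of the coding forms the shorter was thus above NC in KO1 and the longer was not, the retained-intron form was also above NC, and all 3 were below NC in KO2. For JAG2 the coding transcript ENST00000347004 had 0 counts in KO1 and 5 in KO2, against 78 in NC, while ENST00000331782 had 143, 92 and 146. For HEY1 the transcript ENST00000354724 had 75 counts in KO1, 1 in KO2 and 53 in NC, and ENST00000337919 had 8 counts in KO2 and 0 in both others. Overlapping transcripts share most of their sequence, and these counts are the authors' estimates of how fragments divide among them.

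**Figure D3:**
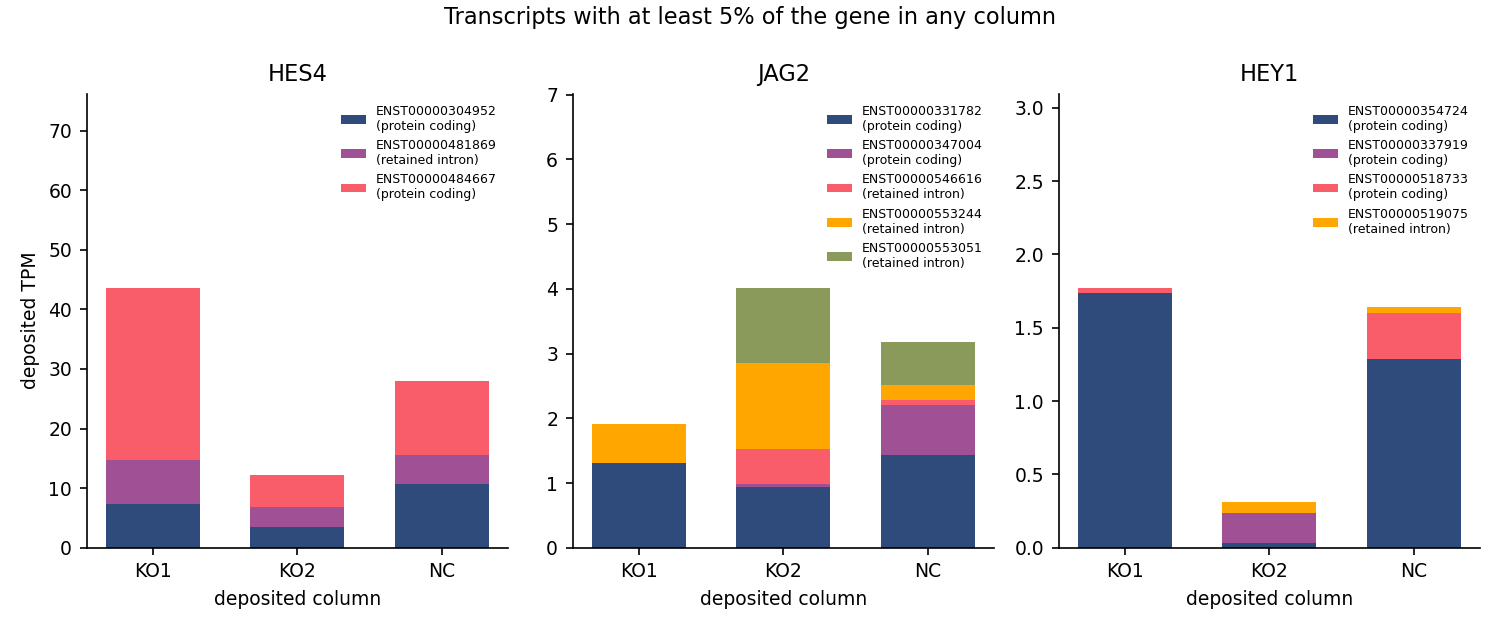
Deposited TPM of each transcript that held at least 5% of its gene's counts in any column, stacked per column (KO1, KO2 and NC from left to right) for HES4, JAG2 and HEY1; each panel has its own axis from 0. For HES4, ENST00000484667 and the smaller ENST00000481869 are higher in KO1 than in NC, and transcripts that retain an intron make up most of the JAG2 bar in KO2.

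The other genes of the pathway were described by 7 lists with 71 genes, of which 60 averaged at least 1 CPM. In KO1 5 of the 60 were higher and 14 lower than in NC, in KO2 4 were higher and 7 lower, and in both columns 0 were higher and 6 lower. Over all measured genes the shares were 15.4% higher and 17.4% lower in KO1, 11% higher and 9.98% lower in KO2, and 6.22% higher and 5.65% lower in both, and the counts of each list below are to be read against these shares. Their median log2 folds were -0.29 and -0.14. The edgeR test called 0 of the 60 genes, and 4 had an unadjusted p under 0.05, where 7.7% of all tested genes had one.

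The 6 genes lower in both columns were POFUT1, GXYLT2, APH1B, NUMBL, DNER and DTX4. POFUT1, which adds the O-fucose that Notch receptors need, was at 80.2 CPM in KO1 and 112.5 CPM in KO2, against 231 CPM in NC. GXYLT2, a xylosyltransferase that extends O-glucose on the receptor, was at 1.74 and 3.71 CPM, against 8.25 CPM in NC. APH1B, a subunit of gamma-secretase, was at 4.70 and 3.71 CPM, against 16.4 CPM in NC. Its paralog APH1A, at 83.4 and 104 CPM against 144 CPM in NC, did not pass the size rule. NUMBL, a homologue of the Notch inhibitor NUMB, was at 7.35 and 20.8 CPM, against 55.0 CPM in NC, and DNER, an atypical Notch ligand, was at 7.13 and 6.57 CPM, against 19.2 CPM. DTX4, a Deltex ubiquitin ligase, was lowest, at 4 counts in KO1 and 7 in KO2 against 287 in NC. It was 58.9-fold lower in KO1 (22.8 to 218) and 41.0-fold lower in KO2 (19.7 to 103). With so few knockout counts the size of these folds is imprecise, and the 2 knockout columns cannot be ranked. DTX4 averaged at least 1 CPM only through NC.

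Of 12 glycosylation and endocytosis genes 4 were lower and 0 higher in KO1, and 3 lower and 1 higher in KO2. LFNG, the fringe enzyme that shifts receptors towards Delta ligands, was at 6.96 CPM in KO1 and 15.7 CPM in KO2, against 19.6 CPM in NC, and its relative MFNG at 0.956 and 3.0 CPM, against 0.643 CPM. NEURL1B, a ubiquitin ligase for ligand endocytosis, was at 3.30 and 10.5 CPM, against 18 CPM, and NEURL1 at 0.869 and 0.678 CPM, against 1.5 CPM. LFNG and NEURL1B passed the size rule in KO1, and MFNG as higher and NEURL1 as lower in KO2. MFNG reached the mean of 1 CPM only through its high KO2 column, and NEURL1 only through its high NC column.

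Of 8 nuclear coactivators 1 was lower in KO1 and 1 higher in KO2. RBPJ, the DNA-binding partner of the cleaved receptor, was at 111 CPM in KO1 and 132 CPM in KO2, against 64.2 CPM in NC, and passed the size rule in KO2. KAT2B, a histone acetyltransferase, was at 2.61 CPM in KO1, 16.9 CPM in KO2 and 19.8 CPM in NC, and passed in KO1. Of 12 measured corepressor genes, CIR1 was higher in KO1, at 55.9 CPM against 21.0 CPM, RITA1, which exports RBPJ from the nucleus, was lower in KO1, at 27.4 CPM against 79.8 CPM, and the demethylase KDM5A was higher in KO2, at 44.6 CPM against 21.5 CPM.

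Of 10 measured genes for receptor turnover and inhibition 4 were lower and 1 higher in KO1, and 2 were lower in KO2. Beside NUMBL and DTX4, the ubiquitin ligase gene FBXW7 was lower in KO1, at 6.78 CPM against 14.1 CPM in NC, as was NRARP, a target that feeds back on the receptor, at 2.26 CPM against 4.79 CPM. AAK1, an endocytic kinase, was higher in KO1, at 94.6 CPM against 41.5 CPM.

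Other targets did not share a direction. Of 7 measured, 2 were higher and 2 lower in KO1, and 1 was higher in KO2. HES6 was at 22.6 CPM in KO1, 7.39 CPM in KO2 and 9.97 CPM in NC, and MYC at 11.4, 4.71 and 4.93 CPM. HEYL and HES7 were lower in KO1, HEYL at 1.96 CPM against 5.14 CPM in NC and HES7 at 0.609 CPM against 1.64 CPM. HES7 was under 1 CPM in both knockout columns and reached the mean of 1 CPM only through NC. HES2 was higher in KO2, at 2.75 CPM against 0.929 CPM. In KO2 against KO1, HES6, MYC and SNAI2 were lower, as HES1, HES4 and HEY1 were, with SNAI2 at 61.7 CPM in KO2 and 147 CPM in KO1. Of all measured genes 11.2% were lower in that comparison and 14.9% higher. HES2, HEYL, CCND1 and HES7 lay the other way, with log2 folds of 0.90, 0.61, 0.48 and 0.33, none past the size rule. The median log2 fold of the 7 targets was 0.33.

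**Figure D4:**
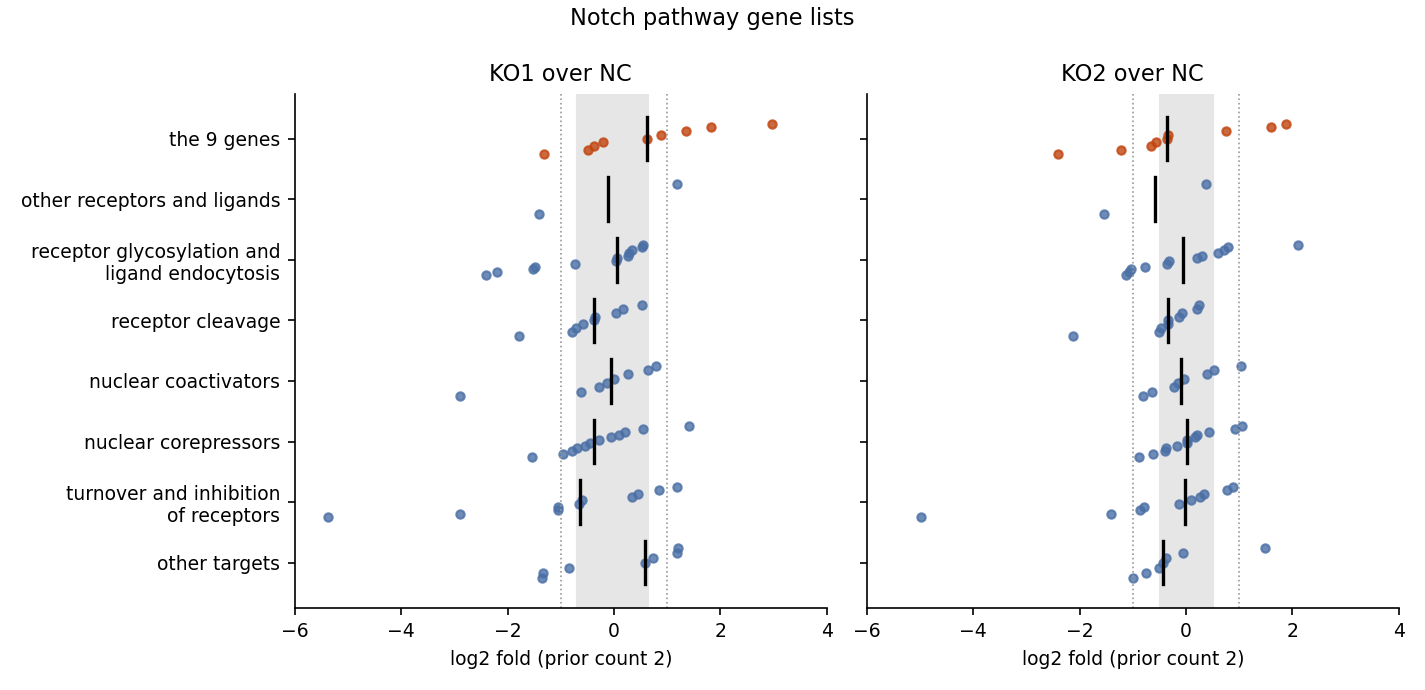
Log2 fold against NC (prior count 2) of each measured gene in the 9-gene set and in 7 further pathway lists, for KO1 and KO2; black bars are list medians, the shaded band is the interquartile range of all measured genes and dotted lines mark a 2-fold difference. The leftmost point in both panels is DTX4, and JAG1 is the rightmost in KO1.

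The nearest patterns to JAG1 and MAML2 among these 60 genes were found by the Euclidean distance over the log2 folds against NC, which rests on 3 columns. For JAG1 the nearest were CIR1 at a distance of 1.70 and AAK1 at 1.91, and for MAML2 they were MFNG at 0.86 and HES2 at 0.87. None was close, since 814 measured genes of the whole table lay as near to JAG1 as CIR1 did and 534 as near to MAML2 as MFNG did.

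To show how far a gene moved apart from its surroundings, each gene was set beside the median of the 100 nearest measured genes on its chromosome. Around JAG1 the neighbours' median log2 fold was -0.05 in KO1 and -0.14 in KO2, and JAG1 lay 3.02 and 1.73 above it. MAML2 had neighbours at 0.41 and 0.60 and lay 0.94 and 1.28 above them, and HES1 had neighbours at 0.39 and 0.42 and lay 1.43 and 0.34 above them. NOTCH1 had neighbours at -0.57 and -0.65, below its own folds of -0.20 and -0.56. HES4 lay 0.95 above its neighbours in KO1 and 1.09 below them in KO2. The share of MAML2 and HES1 that moves with their regions was not tested.

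**Figure D5:**
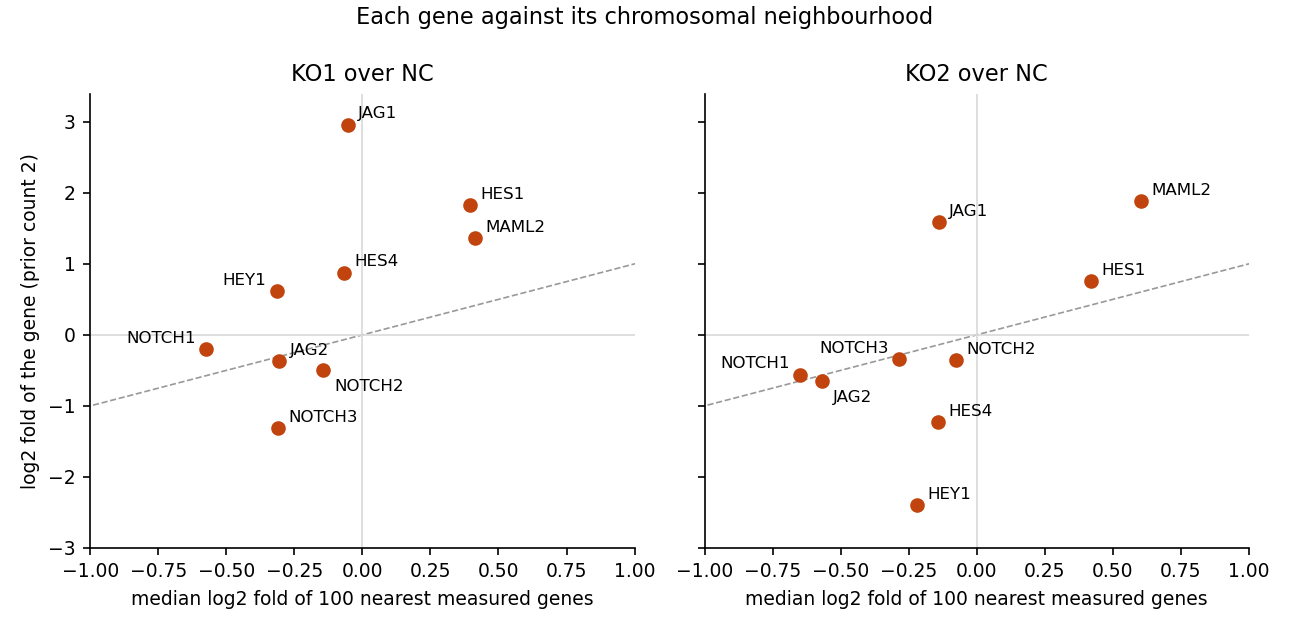
Log2 fold of each gene against NC (vertical axis) beside the median log2 fold of the 100 nearest measured genes on its chromosome (horizontal axis), for KO1 and KO2; the dashed line marks equality. JAG1 lies far above the line in both panels, while NOTCH1, NOTCH3 and JAG2 lie near it in KO2, and JAG2 also in KO1.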

How the data were processed

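RNA from MDA-MB-231 cells was extracted with Trizol and made into stranded total RNA libraries, per the labels' protocols. The deposited table gives, per the file headers, estimated counts, TPM and FPKM for 199167 transcripts. The deposited estimated counts, written by the authors as whole numbers, were summed per gene ID. The deposited TPM values were summed per gene for levels per length, and the 3 columns of FPKM were not used. The submitters' processing notes name CASAVA, Bowtie2, featureCounts and hg38, and the tool that estimated transcript values is not given in the sources used here. Columns were matched to the 3 groups by name.

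Column sizes were scaled by TMM on genes kept by filterByExpr (edgeR 4.0.16, R 4.3.3). The size rule replaced a test because 1 column per group leaves no spread, and its intervals are Clopper-Pearson intervals conditional on the summed count (SciPy 1.17.1). They cover counting error only, and PCR copies cannot be recognised. The edgeR fit used robust dispersions, and DESeq2 1.42.0 served for an alternative. The steps were also run on simulated counts with the same change set in both knockout columns. That run was a check of the code and is no evidence for the results on these genes. All tests ran on the whole table. The 9 genes, the pathway lists and the alternatives were chosen with earlier results of these data known. All 9 genes were named, as were transcripts with at least 5% of their gene, and list genes past the size rule: those in both columns, and otherwise up to the 2 highest and 2 lowest per list and comparison. Others were named after their values were seen. Gene positions are those of the table, transcript types come from GENCODE release 29, and symbols were found for 57392 of the gene IDs. RefSeq start sites can differ from those of the table. A result on one gene of the pathway is not reported here.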

Additional observations from a re-analysis of the deposited data

Results flagged for a closer look

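HES4 and HEY1 lay on opposite sides of NC in the knockout columns. The log2 fold of HES4 was 0.88 in KO1 and -1.23 in KO2, and that of HEY1 was 0.62 in KO1 and -2.40 in KO2. With 1 column per group these differences between the knockouts were not tested. Opposite sides, with both counting intervals excluding equality, were also seen for other pathway genes. HES6, SNAI2, RFNG, PSENEN, CTBP2 and TLE1 were above NC in KO1 and below it in KO2. The reverse held for ADAM10, FBXW7, EP300, NCOR1, TLE3 and L3MBTL3. The ratio of SNAI2 to NC was 1.67 for KO1 but 0.70 for KO2. The share of all measured genes with this pattern was not computed, so it is not shown to be particular to HES4 and HEY1. HES4 kept both directions on deposited TPM, with log2 folds of 0.61 and -1.20, while HEY1 was at 0.01 in KO1 on that scale.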

How the results depend on the processing

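No paired analysis was possible because the columns carry no replicate number. With a 3-fold threshold the genes past the size rule numbered 2401 in KO1 against NC, 1300 in KO2 against NC and 1630 in KO2 against KO1 (4766, 3048 and 3788 at 2-fold), and of the 9 genes 2 passed in KO1 against NC and 2 in KO2 against KO1, where 4 passed in each at 2-fold. Without a filter on low values the counts were 5164 in KO2 against NC and 5702 in KO2 against KO1, and at a mean of 5 CPM 1915 passed in KO2 against NC. The edgeR test called 27 genes, against 14 with DESeq2 size factors, 6 on nuclear protein-coding genes, 48 without robust dispersions (an alternative chosen after seeing the data), 493 without a filter and 298 by DESeq2, and 1 of the 9 genes, JAG1, was called without a filter. Higher genes made up 46.9% of those past the rule in KO1 against NC, but 33.3% with column totals and 26.9% on deposited TPM. In KO2 against KO1 they made up 57.1%, 74.8% and 81.4%. The shares on TPM come from the rule with no counting interval. Column totals shifted the median of all genes by -0.23 and TPM by -0.37 in KO1 against NC, and by 0.26 and 0.42 in KO2 against KO1. Of 108 repeats of calls on the 9 genes 11 were lost, 5 of them under the 3-fold threshold, and none of the called folds changed sign. Not every repeat could fail. Dropping the filter on low values cannot lose a call, and other filters or thresholds leave the fold and its sign unchanged. Without a knockout column no residual degree of freedom is left, so no test could be run, and the log2 fold of JAG1 was 1.59 without KO1 and 2.96 without KO2. The 10 HEY1 counts in KO2 limit the precision of its fold.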

Other observations

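Transcript length and GC content moved with the folds. With measured genes cut into 5 classes of transcript length, the longest class had a median log2 fold of -0.06 in KO1 and 0.22 in KO2 against NC, and the shortest class 0.15 and -0.20. JAG1, JAG2, MAML2, NOTCH1, NOTCH2 and NOTCH3 were in the longest class, and HES1 and HES4 in the shortest. The highest of 5 classes of GC content, with HES4, JAG2, NOTCH1 and NOTCH3 among them, had medians of -0.25 and -0.28. The part of length or GC content in the results on these genes was not tested. NOTCH2NLA, the near-identical copy of NOTCH2, was at 10.5 CPM in KO1 and 16.6 CPM in KO2, against 16.6 CPM in NC.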
